A study of Mus musculus with 11 samples.

Results

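The collagen chain genes were taken as all rows of the count table whose gene name is Col, a number, the letter a and a number, which gave 36 of the 14602 genes. By structure they were 10 fibrillar chains, 8 chains of basement membranes (Col4, Col15 and Col18), 3 network chains (Col8 and Col10), 8 chains of the FACIT group, which sit on the surface of fibrils, and 7 other chains (Col6, Col7, Col13, Col17 and Col23). The samples were RPE/choroidal tissue of C57BL/6J mice, that is the retinal pigment epithelium with the vascular choroid beneath it, left after the neural retina had been taken off the eye cup. A first group of 6 samples came from naïve, untreated mice. A second group of 5 samples came from mice that had received the 2RT nanosecond laser unilaterally at 9 months of age. Its short light pulses are absorbed by pigment in the epithelium. All 11 samples were taken at 12 months of age, which was 3 months after the laser. Libraries of the naïve control mice are called C1 to C6 and those of the laser treated mice L1 to L5.

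A collagen is a trimer of 3 chains wound into a triple helix, and the chains of many types come from separate genes whose products have to meet in the same cell. Fibrillar collagens give tensile strength to the stroma and sclera, collagen IV chains form the sheet of basement membranes, and short network-forming collagens such as type VIII build hexagonal lattices. In the eye the RPE and the choroid share Bruch's membrane, a layered matrix with the basement membranes of the RPE and of the choroidal capillaries on its outer faces and collagen and elastin between them.

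Libraries held 25700881 to 38755994 counts. RNA had been preamplified with a SmartSeq v4 kit and made into NexteraXT libraries, which do not mark the strand. Of 8 RPE markers, Best1 was near the floor (0 counts in 3 libraries), and the other 7 were abundant, with a summed level of 74196 to 128247 CPM (counts scaled to library size after TMM normalization) for the whole list. Neural retina markers remained in every library, with a summed level of 5524 to 19562 CPM in the naïve control and 3844 to 17972 CPM in the laser treated group. All 36 chains passed edgeR's expression filter, and 10 of them had 0 counts in at least 1 library. In each library, 0.431% to 0.744% of all counts fell on the 36 genes.

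Expression of the collagen chains was concentrated in 3 genes. To compare genes, the CPM of each was divided by its exonic length in kilobases (the level per length). Col8a2 had a mean level of 471 ± 94.8 CPM per kb (SD, n = 11), Col9a3 of 358 ± 83.6 and Col8a1 of 203 ± 35.0. These held 42.4%, 32.2% and 18.2% of the summed level of the 36 chains, and ranked 59th, 85th and 168th among the 14252 genes with a known length. Their joint share varied little, from 91.2% to 94.6% over the 11 libraries. Collagen VIII, made of the chains of Col8a1 and Col8a2, is a short-chain collagen of Descemet's membrane, Bruch's membrane and vessel walls. Col9a3 encodes the α3 chain of collagen IX, a FACIT collagen best known from cartilage and vitreous. The next 3 chains were Col4a3 (31.4 ± 7.23 CPM per kb) and Col4a4 (4.88 ± 0.926), of the α3α4α5 form of collagen IV, and Col18a1 (21.7 ± 5.83), whose basement membrane product is cleaved to release endostatin. The other 30 chains together held 1.93% of the summed level.

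**Figure D1:**
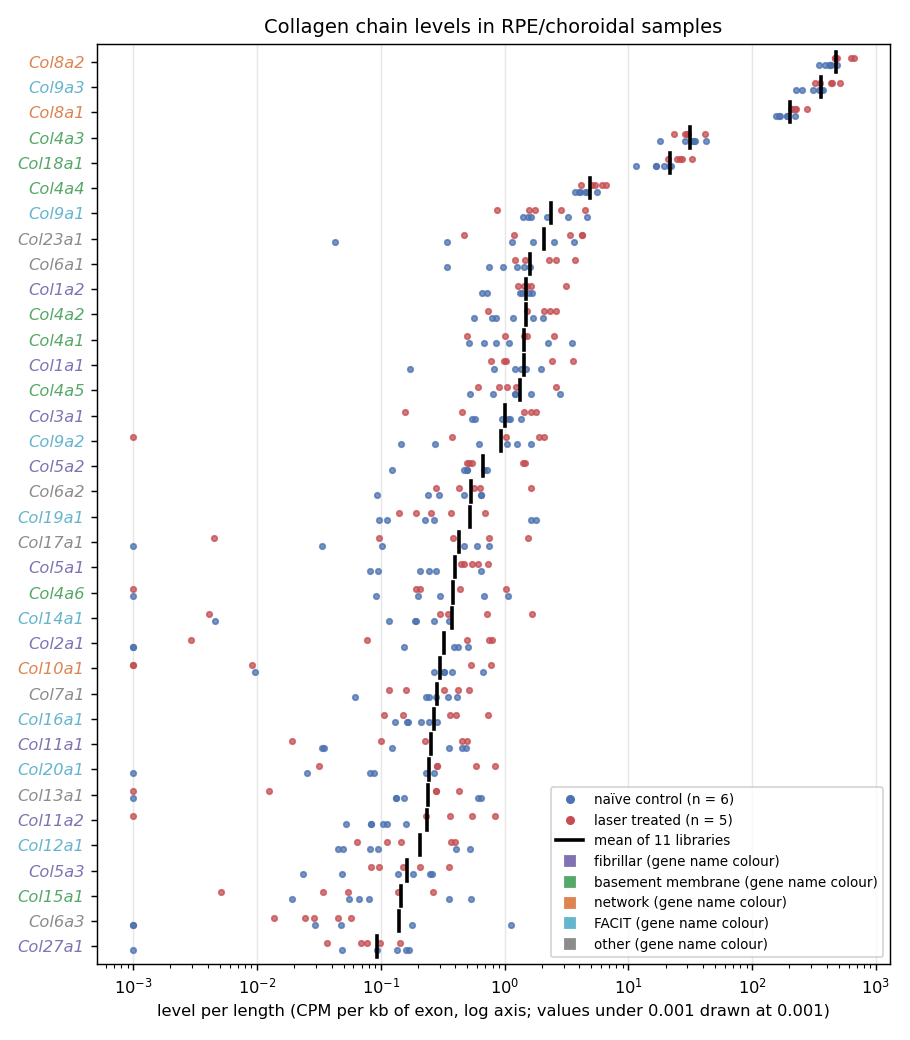
Level per length of the 36 collagen chain genes, in CPM per kb of exon on a log axis, with 1 point per library (blue, 6 naïve control; red, 5 laser treated) and a black tick at the mean of the 11 libraries. Col8a2, Col9a3 and Col8a1 lie between 155 and 664 CPM per kb in every library, and below the 6 leading chains the libraries spread widely and the order of neighbours is not fixed.

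By exonic length, the order of the first 6 chains was nearly the same in each library. Col8a2 lay above Col9a3, Col9a3 above Col8a1, Col8a1 above Col4a3, Col18a1 above Col4a4 and Col4a4 above Col9a1 in 11 of 11 libraries, and Col4a3 above Col18a1 in 10 of 11. The order of the first 3 changed with the unit. Per coding length Col8a2 stayed first in 11 of 11 libraries, but Col9a3 lay above Col8a1 in only 4. By the TPM of the deposited transcript files, Col8a1 lay above Col8a2 in 11 of 11 libraries, Col8a2 above Col9a3 in 8 and Col9a3 above Col8a1 in 1, and Col4a3 above Col18a1 in 6. From Col9a1 (2.38 ± 1.26 CPM per kb) downward the order could not be told from the spread between libraries. The following chains by mean were Col23a1 (2.07), Col6a1 (1.60), Col1a2 (1.49), Col4a2 (1.48), Col4a1 (1.44), Col1a1 (1.44), Col4a5 (1.33) and Col3a1 (1.01), and each of these exceeded its next neighbour in only 5 to 7 of 11 libraries. The fibrillar chains of collagens I and III, the main collagens of connective tissue, thus lay far below collagen VIII per length. Stroma markers of the fibroblast list were detected, with a summed level of 126 to 540 CPM in the naïve control and 131 to 492 CPM in the laser treated group.

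Partner chains were not always present in like amounts. Col9a3 exceeded Col9a1 per length by 72.7 to 502 times (median 141), and Col9a2 was at 0.940 ± 0.718 CPM per kb with 0 counts in L2, although collagen IX is known as a heterotrimer of the 3 products. By TPM the ratio of Col9a3 to Col9a1 ran from 0.634 to 150 (median 32.3) and was below 1 in C5. The TPM of Col9a3 was 10.8 to 15.3 in C5, C6, L1, L2 and L3 and 524 to 1007 in the other 6 libraries, while its counts did not split in this way. Reads of Col9a3 (chr2:180597790-180622189, plus strand, GRCm38) could in part belong to Tcfl5, whose exons on the opposite strand share 234 bases, or 6.07% of the exonic length of Col9a3. The counts of Tcfl5 were 471 to 1058 per library, against 29999 to 72750 for Col9a3. Col4a3 exceeded Col4a5, its partner in the α3α4α5 trimer, by 11.6 to 81.0 times per length (median 23.3), and Col4a1, the ubiquitous α1 chain, by 8.08 to 82.3 times (median 30.1).

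Promoter windows of partner chains are shown for the chains whose joint variation is described further on: Col8a1 and Col8a2 lie on different chromosomes, while Col4a3 and Col4a4 start 72 bases apart in opposite directions, and so do Col4a1 and Col4a2 at 21 bases. The windows hold 250 bases before and 50 after the start in RefSeq (GRCm38.p6), and the table gave a window for 29 of the 36 chains. Capitals mark the GC box GGGCGG, the box known as CCAAT and the TATA box TATAAA, each searched on both strands, and matches may touch. The Col8a1 window is chr16:57754688-57754987 (minus strand), that of Col8a2 chr4:126286544-126286843 (plus), that of Col4a4, which includes the annotated start of Col4a3, chr1:82586800-82587099 (minus), and that of Col4a1, which includes the start of Col4a2, chr8:11312777-11313076 (minus).
Col8a1: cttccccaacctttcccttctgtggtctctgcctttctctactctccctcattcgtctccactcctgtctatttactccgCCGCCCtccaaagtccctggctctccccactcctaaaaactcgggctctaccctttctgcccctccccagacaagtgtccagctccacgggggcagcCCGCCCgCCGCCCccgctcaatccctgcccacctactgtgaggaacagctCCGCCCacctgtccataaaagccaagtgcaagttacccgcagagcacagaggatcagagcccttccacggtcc
Col8a2: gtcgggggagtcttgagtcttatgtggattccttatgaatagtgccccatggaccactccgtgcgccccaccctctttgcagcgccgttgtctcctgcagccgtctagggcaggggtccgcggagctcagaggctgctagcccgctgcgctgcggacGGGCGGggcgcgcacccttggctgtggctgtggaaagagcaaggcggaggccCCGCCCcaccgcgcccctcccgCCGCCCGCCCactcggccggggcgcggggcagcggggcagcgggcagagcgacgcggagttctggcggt
Col4a4: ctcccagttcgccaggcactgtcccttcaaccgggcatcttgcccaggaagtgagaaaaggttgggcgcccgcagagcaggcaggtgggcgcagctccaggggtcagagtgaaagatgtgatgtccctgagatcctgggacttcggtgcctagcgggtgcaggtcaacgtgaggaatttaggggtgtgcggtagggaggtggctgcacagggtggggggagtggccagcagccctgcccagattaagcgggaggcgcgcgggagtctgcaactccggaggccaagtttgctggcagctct
Col4a1: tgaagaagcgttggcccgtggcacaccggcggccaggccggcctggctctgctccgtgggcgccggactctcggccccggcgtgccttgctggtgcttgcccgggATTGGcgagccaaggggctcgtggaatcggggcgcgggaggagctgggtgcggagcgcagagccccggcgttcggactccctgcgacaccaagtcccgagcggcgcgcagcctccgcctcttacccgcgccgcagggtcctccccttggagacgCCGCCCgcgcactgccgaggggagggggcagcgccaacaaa
The Col8a1 and Col8a2 windows each held 4 GGGCGG matches, that of Col4a1 1, and that of Col4a4 0. Of all 32851 windows 35.7% hold the GC box, 37.4% the CCAAT box and 13.6% the TATA box, and of the 32 windows of the chains 19, 11 and 5 did. Counted by gene, 18, 11 and 5 of the 29 chains had the box in at least 1 window. CCAAT was found only in Col4a1 among these 4, and TATAAA in none. The median GC content was 60% for the windows of the chains and 52.7% for all windows. These matches describe letters in a window, not sites.

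After laser treatment no collagen chain passed an adjusted p under 0.05 (edgeR quasi-likelihood test, Benjamini-Hochberg over all genes). None of the 14602 genes did (0%), while 2325 of them (15.9%) had an unadjusted p under 0.05, and the smallest adjusted p of a chain was 0.177. DESeq2 called 269 genes higher (3.87%) and 278 lower (4.00%) of the 6946 to which it gave an adjusted p. Of the 7 chains among these it called Col18a1 (adjusted p = 0.0404). At an unadjusted p under 0.05, 5 of the 36 chains were higher in the laser treated group, a share of 13.9% beside 8.24% of all genes, and 0 were lower, beside 7.68%. These 5 were Col18a1, Col8a2, Col8a1, Col6a1 and Col9a3, so the 3 chains with the highest level were all among them. Without L2 the number was 3, namely Col18a1, Col8a2 and Col6a1. Col18a1 and Col8a2 kept an unadjusted p under 0.05 whichever library was left out. Among the 6 libraries that the transcript files label R2, Col8a2, Col8a1 and Col9a3 had log2 fold changes of 0.26, 0.17 and 0.14. Their unadjusted p by edgeR was not under 0.05 there. For no chain were the groups free of overlap, where 1.40% of all genes were higher and 0.863% lower without overlap. The log2 fold change was above 0 for 25 chains (69.4%, beside 48.5% of all genes), with a median of 0.35 over the chains and -0.02 over all genes. In bulk tissue, more RNA per cell and more cells of a type cannot be told apart.

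**Figure D2:**
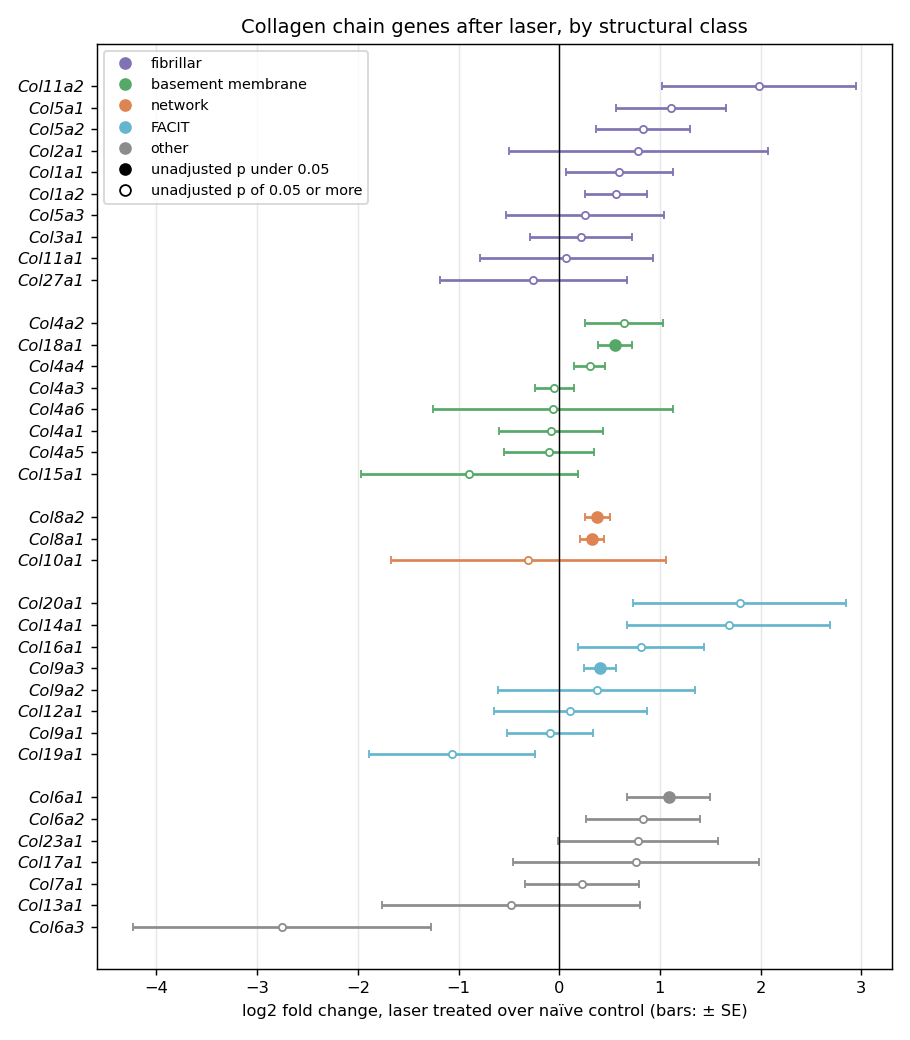
Log2 fold change of each collagen chain gene, laser treated over naïve control, with its standard error, sorted within structural classes (colours). Filled points mark the 5 chains with an unadjusted p under 0.05, all to the right of 0, and the error bars of the scarce chains are wider than those of Col8a1, Col8a2, Col9a3, Col18a1, Col4a3 and Col4a4.

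In the main fit, without removal of a GC trend, the network chains Col8a1 and Col8a2 were higher by a similar step. Col8a2 (chr4:126286793-126314330, plus strand) had 1563, 1878 and 2156 CPM as the lowest, median and highest of the naïve control libraries, and 2077, 2982, 2156, 2803 and 2088 CPM in L1 to L5. Only L2 and L4 stood above every control, while 5 of the 6 controls lay below the lowest laser treated library. The log2 fold change was 0.38 ± 0.13 (SE; adjusted p = 0.203). Col8a1 (chr16:57624258-57754737, minus strand) had 1214, 1401 and 1736 CPM in the controls and 1733, 2175, 1626, 1767 and 1633 CPM in L1 to L5, with L2 and L4 again above all controls. Its log2 fold change was 0.33 ± 0.12 (SE; adjusted p = 0.222). Col10a1, the hypertrophic cartilage chain of the same class, was scarce, with 0.0301, 1.02 and 2.10 CPM in the controls and 0, 2.45, 0.0285, 0 and 1.68 CPM in L1 to L5.

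Among basement membrane chains, Col18a1 differed most clearly. Col18a1 (chr10:77052178-77166548, minus strand) had 80.8, 127 and 154 CPM as the lowest, median and highest control values and 175, 146, 183, 229 and 191 CPM in L1 to L5. All laser treated libraries except L2 were above every control, and the log2 fold change was 0.55 ± 0.17 (SE; adjusted p = 0.177). Col4a4 had 39.4, 45.2 and 59.5 CPM in the controls and 69.5, 53.7, 64.6, 44.3 and 56.9 CPM in L1 to L5 (log2 fold change 0.30 ± 0.15, adjusted p = 0.353). Col4a3, its neighbour on chromosome 1, had 180, 334 and 425 CPM in the controls and 303, 298, 232, 418 and 285 CPM after laser (log2 fold change -0.05 ± 0.20, adjusted p = 0.941), all of these values within the range of the controls.

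The remaining chains of this class were scarce and varied strongly. Col4a1 had 3.87, 7.20 and 26.2 CPM in the controls and 7.54, 18.9, 11.4, 10.7 and 3.73 CPM in L1 to L5. Col4a2, the second chain of the common α1α1α2 trimer, had 3.71, 6.69 and 13.4 CPM against 4.89, 15.3, 17.1, 13.8 and 10.0 CPM, with 3 laser treated libraries above all controls (log2 fold change 0.64 ± 0.39, adjusted p = 0.454). For Col4a1 the groups overlapped over most of their range. Col4a5 had 3.54, 8.18 and 18.9 CPM against 6.05, 7.04, 4.11, 17.4 and 8.27 CPM. Col4a6, on chromosome X next to Col4a5, had 0, 1.98 and 8.51 CPM against 3.50, 0, 1.54, 1.66 and 8.14 CPM. Col15a1, the stromal relative of Col18a1, was at the low end, with 0.121, 0.465 and 3.41 CPM in the controls and 0.0324, 0.217, 0.342, 1.69 and 0.872 CPM after laser. Of the 8 chains 3 had a log2 fold change above 0 and 5 below, and the median of the class was -0.06.

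**Figure D3:**
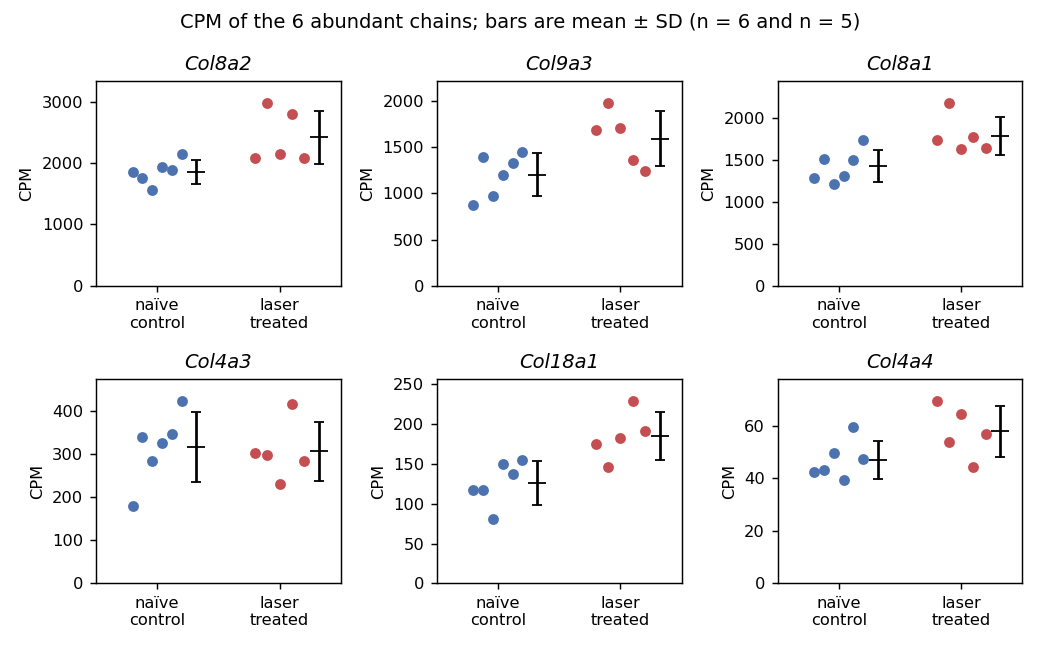
CPM of the 6 chains with the highest level, with 1 point per library and the mean ± SD of each group beside the points (blue, naïve control, n = 6; red, laser treated, n = 5). For Col8a2, Col9a3, Col8a1 and Col18a1 the laser treated mean is higher with ranges that still overlap (Col18a1 185 ± 29.9 against 126 ± 27.2 CPM), while Col4a3 has similar means (307 ± 68.1 and 317 ± 81.3 CPM).

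In the FACIT group Col9a3 had 875, 1263 and 1446 CPM as the lowest, median and highest control values and 1682, 1977, 1706, 1356 and 1243 CPM in L1 to L5. L1, L2 and L3 were above all controls and L4 and L5 within their range (log2 fold change 0.41 ± 0.16, adjusted p = 0.246). By TPM the direction turned (-1.55 on the log2(TPM + 1) scale), with L1, L2 and L3 at 10.8 to 15.3 TPM. Col9a1 had 7.10, 9.76 and 23.5 CPM in the controls and 4.40, 7.91, 8.96, 14.4 and 22.5 CPM after laser (log2 fold change -0.09 ± 0.43). Col9a2 had 0.453, 2.59 and 5.02 CPM against 1.17, 0, 5.82, 3.18 and 6.46 CPM (log2 fold change 0.37 ± 0.98). Both groups of Col9a1 and of Col9a2 overlapped over most of their range, and their standard errors were as large as the change of Col9a3. The class as a whole had 6 chains above 0 and 2 below, with a median of 0.39.

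Of the fibrillar chains 9 of 10 had a log2 fold change above 0 (median 0.58), and none had an unadjusted p under 0.05. Col1a2 had 8.14, 16.9 and 20.8 CPM in the controls and 16.0, 19.0, 17.8, 39.2 and 20.5 CPM in L1 to L5, where L4 stood alone above the controls (log2 fold change 0.56 ± 0.31, adjusted p = 0.399). Without L4 this value was 0.25. Col1a1 had 1.13, 8.45 and 12.8 CPM against 6.51, 23.5, 5.11, 15.9 and 6.76 CPM, a difference (0.59 ± 0.53) that was 0.16 without L2. Col3a1, whose trimer strengthens soft tissues, had 5.37, 9.95 and 13.3 CPM against 4.44, 17.6, 1.54, 15.9 and 14.1 CPM, so the laser treated libraries surrounded the controls on both sides.

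The chains of collagens V and XI, which nucleate fibrils, were among the scarce ones. Col5a1 had 0.695, 1.92 and 5.48 CPM in the controls and 3.98, 3.75, 5.14, 6.25 and 4.60 CPM in L1 to L5, and 5 of 6 controls lay below every laser treated library (log2 fold change 1.11 ± 0.54, adjusted p = 0.341). Col5a2 had 1.18, 4.75 and 6.91 CPM against 5.25, 13.6, 4.91, 4.73 and 14.1 CPM, high in L2 and L5 only (0.83 ± 0.47, adjusted p = 0.411). Col11a2 had 0.363, 0.645 and 1.10 CPM in the controls and 3.76, 1.60, 2.48, 5.76 and 0 CPM after laser, with 4 libraries above all controls and L5 below them (log2 fold change 1.99 ± 0.96, adjusted p = 0.335). Col11a1 had 0.423, 3.05 and 6.17 CPM against 2.91, 0.245, 5.74, 1.29 and 6.37 CPM, with wholly mixed groups.

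Among the other chains, those of collagen VI, a microfibril of the pericellular matrix, did not share 1 pattern. Col6a1 (chr10:76708792-76726168, minus strand) had 1.51, 4.88 and 6.98 CPM as lowest, median and highest control values and 6.44, 11.4, 5.28, 16.2 and 10.0 CPM in L1 to L5. L2, L4 and L5 were above all controls (log2 fold change 1.09 ± 0.41, adjusted p = 0.235). Col6a2 had 0.775, 3.18 and 5.40 CPM against 5.28, 13.6, 3.57, 4.67 and 2.34 CPM, with L2 alone above the controls, and its log2 fold change of 0.83 ± 0.56 was 0.26 without L2. Col6a3 had 0, 0.463 and 13.4 CPM against 0.291, 0.163, 0.685, 0.344 and 0.541 CPM. The high control value is that of C4, and the remaining libraries of both groups held 0 to 2.12 CPM. Col23a1, a transmembrane collagen, had 0.243, 8.13 and 20.8 CPM against 2.69, 6.88, 19.2, 24.0 and 24.2 CPM (log2 fold change 0.78 ± 0.80).

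The 11 chains not yet described were Col2a1, Col5a3, Col27a1, Col12a1, Col14a1, Col16a1, Col19a1, Col20a1, Col7a1, Col13a1 and Col17a1. They held 0 to 12.5 CPM, and their log2 fold changes ran from -1.07 to 1.79 with standard errors of 0.57 to 1.29 and adjusted p-values of 0.442 to 0.964. Of these, 8 were above 0 and 3 below.

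Precision followed abundance. The 6 chains with a mean of at least 50 CPM had coefficients of variation within groups of 10.6% to 25.6%, and the 30 others of 21.1% to 193% with a median of 67.2%. Among the scarce chains the biological coefficient of variation of the edgeR fit had a median of 0.875, against 0.469 for the 11223 genes under 50 CPM, while abundant chains (0.215) were like the 3379 abundant genes (0.215). The sets under 50 CPM were not matched in level, so this gap is not a comparison at like abundance. Of the 6 abundant chains 4 had an unadjusted p under 0.05, beside 33.6% of all genes at that level, and of the 30 others 1, beside 10.6%. With the GC trend removed, Col8a1 was the only one of these 4 with an unadjusted p under 0.05.

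The ratio of 2 partner chains within a library does not depend on how libraries are scaled, and 13 such pairs were compared. It is not free of a trend on GC content where partners differ in that content. The ratios were not computed with this trend removed. After its removal the log2 fold change was 0.48 for Col8a1 (46.8% GC) and 0.13 for Col8a2 (59.1% GC). No ratio passed the test between groups (exact permutation test of the 462 possible splits, both sides, smallest p = 0.208, adjusted 0.886). The pair Col8a1 and Col8a2 had the steadiest ratio. Its log2 count ratio was -0.39 ± 0.14 (SD, n = 6) in the naïve control and -0.43 ± 0.15 (SD, n = 5) in the laser treated group, and per exonic length the level of Col8a1 was 0.361 to 0.492 of that of Col8a2 over the 11 libraries. Which chain was higher depended on the unit: this ratio was 0.592 to 0.807 per coding length and 1.14 to 1.83 by TPM. Within groups the SD of the log2 count ratio was 0.14, where Poisson counting error of the reads gave 0.0085, so this pair too varied beyond that error. RNA had been preamplified, so here and below this error is that of read counts and not of RNA molecules. Over the 11 libraries the log2 CPM of both chains correlated with r = 0.86 (permutation p = 0.00037, adjusted 0.00481 over 13 pairs) and rho = 0.90 (permutation p = 0.0004, adjusted 0.0052). Without C3 and L2, the libraries farthest from the median, r was 0.67, for deviations from the group means 0.73, and among the 6 libraries that the transcript files label R2 0.71. In none of these cases was the adjusted permutation p over the 13 pairs under 0.05. No correlation was computed over the 5 libraries labelled R1. Correlations with genes outside the 13 pairs are not given, so joint variation of Col8a1 and Col8a2 is not shown to be particular to partner chains.

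The Col8a1 and Col8a2 promoter windows printed above come from chromosomes 16 and 4, and each holds 4 GGGCGG matches, a motif found for 18 of the 29 chains. A link of these matches with joint variation was not tested. The ratios of the other pairs varied more. For Col4a3 and Col4a4 the SD of the log2 ratio within groups was 0.46, where Poisson counting error gave 0.0385, and per length the ratio ran from 3.82 to 10.0. For these 2 genes, whose starts share 1 promoter window, r was -0.13 (permutation p = 0.699, adjusted 0.893) and rho -0.15 (adjusted permutation p = 0.779), and without C1 and C6 r was -0.55. For Col4a1 and Col4a2 the SD was 0.77 with a counting error of 0.13, and r was 0.57 (permutation p = 0.0664, adjusted 0.231), or 0.41 without C4 and L2. For Col1a1 and Col1a2 the SD was 0.82 with a counting error of 0.13, and r was 0.75 (permutation p = 0.0132, adjusted 0.0855), or 0.76 without C3 and L2. Col1a1 and Col3a1 had r = 0.57 (adjusted permutation p = 0.231) and rho = 0.82 (adjusted permutation p = 0.0207). Scarce partners such as Col9a2 or Col6a3, with 0 counts in some libraries, gave ratios that rest on the pseudocount of 0.5.

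**Figure D4:**
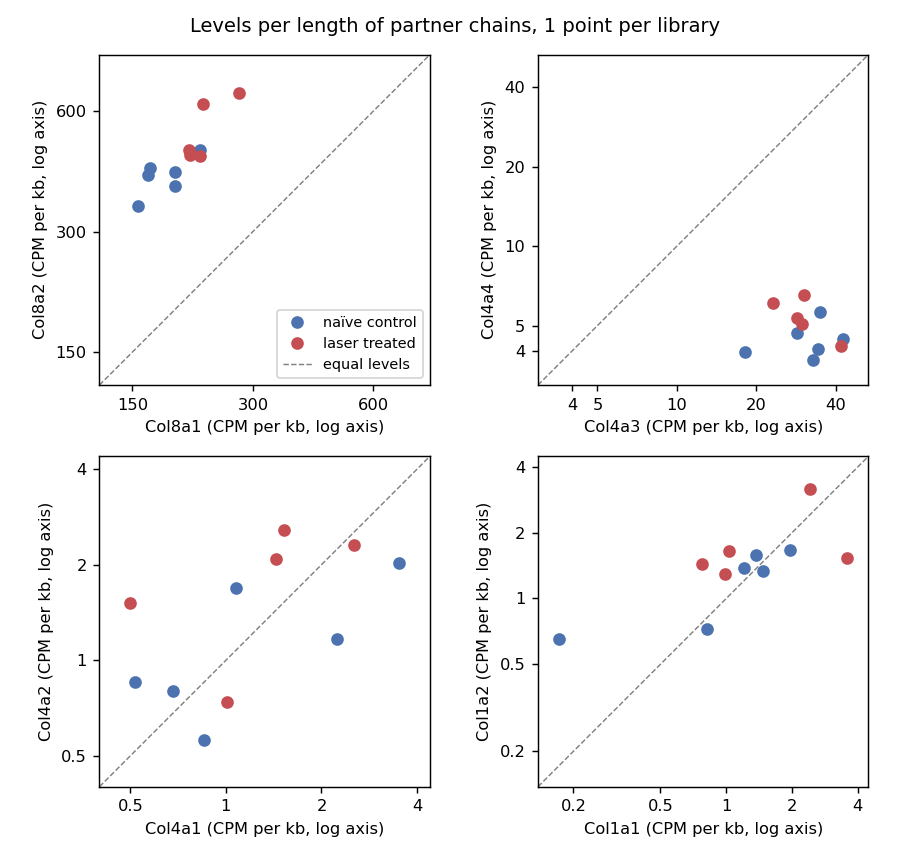
Level per length of 4 pairs of partner chains, in CPM per kb on log axes, with 1 point per library (blue, naïve control; red, laser treated) and a dashed line of equal levels. Col8a1 and Col8a2 fall along a line parallel to the dashed one (r = 0.86), Col4a3 and Col4a4 show no shared trend (r = -0.13), and the scarce pairs Col4a1 and Col4a2 or Col1a1 and Col1a2 scatter around equal levels.

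Over all genes the fold changes were higher for transcripts of higher GC content, and the collagen chains are rich in GC. Over the 14252 genes with a known transcript the Spearman correlation of log2 fold change and GC content was 0.46 (across genes, which are not independent), and the median GC content was 56.3% for the chains and 49.8% for all genes. The median log2 fold change of all genes ran from -0.30 under 45% GC to 0.30 at 60% or more. When a smooth trend on GC content was removed in each library, the median over chains was 0.21 and over all genes 0.04, and 1 chain, Col8a1, had an unadjusted p under 0.05 and was higher, beside 4.25% of all genes, and 0 were lower, beside 3.23%. Col8a1 (46.8% GC) then had a log2 fold change of 0.48 ± 0.16 and Col8a2 (59.1% GC) of 0.13 ± 0.14. Col18a1 (60.8% GC) had 0.31 ± 0.16 and Col9a3 (59.2% GC) 0.17 ± 0.19. The part of GC content in these differences was not tested further.

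**Figure D5:**
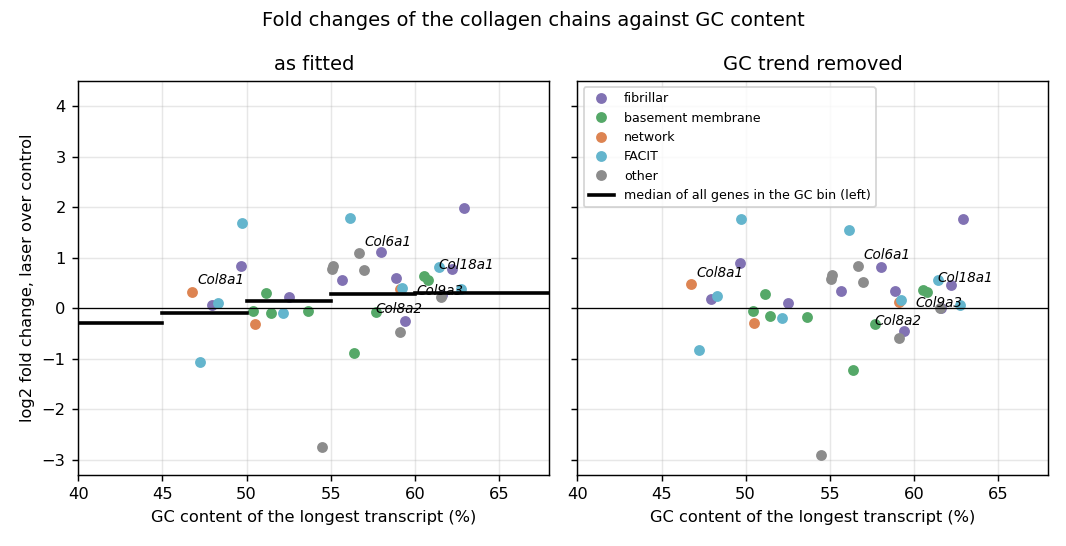
Log2 fold change of the 36 chains (colours by class) against the GC content of the longest transcript in percent, as fitted on the left and with the GC trend of each library removed on the right; black lines on the left mark the median of all genes in GC bins. The lines climb from -0.30 to 0.30, most chains sit at 50% GC or more, and on the right Col8a2 (0.13) and Col9a3 (0.17) move toward 0 while Col8a1 does not.

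Genes that act on collagen were read from 3 lists with 43 genes in the table, of which 10 had an unadjusted p under 0.05 higher after laser and 1 lower, beside 8.24% and 7.68% of all genes. Of 32 maturation genes 8 were higher. Plod1, a lysyl hydroxylase, had 11.8 to 23.8 CPM in the controls and 24.6 to 30.6 CPM after laser without overlap (log2 fold change 0.80 ± 0.19, adjusted p = 0.172). Pcolce, the enhancer of procollagen C-proteinase, had 457 ± 78.5 CPM in the controls and 614 ± 77.1 CPM after laser (0.43 ± 0.14, adjusted p = 0.185), and Bmp1, that proteinase, 8.59 ± 4.01 and 16.3 ± 3.17 CPM (0.92 ± 0.33). The others were the crosslinking oxidase Loxl1 (0.44 ± 0.15), the prolyl hydroxylase subunits P4hb (0.32 ± 0.13) and P4ha3 (3.53 ± 1.32, with 0 counts in 3 libraries), Leprel2 (0.78 ± 0.29) and the chaperone Fkbp10 (0.82 ± 0.38). Ppib, a prolyl isomerase of the endoplasmic reticulum, was lower at -0.44 ± 0.17. Of 6 receptors Ddr1, a collagen-activated kinase, had 0.38 ± 0.17, and of 5 degradation genes the gelatinase Mmp2 had 0.78 ± 0.33. With the GC trend removed the number higher was 3, and without L2 it was 6.

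Markers of the cells that could supply collagen were set beside these values. Of the Schwann cell markers, Mbp, a myelin protein, had 59.0 ± 52.7 CPM in the controls and 275 ± 231 CPM after laser (SD). Sox10, a transcription factor of these cells, had 132 ± 21.4 and 203 ± 43.5 CPM, and Cnp, a myelin enzyme, 15.9 ± 3.42 and 36.2 ± 15.8 CPM. These had an unadjusted p under 0.05 by edgeR, where 8.24% of all genes were higher, and the groups overlapped for each. Prx, a protein of myelinating Schwann cells, went the other way and did not pass (0 to 4.51 and 0 to 2.46 CPM, log2 fold change -1.46 ± 1.28). The other 11 marker lists had 0 such genes. The endothelial sum was 98.4 to 313 CPM in the controls and 167 to 479 CPM after laser, that of pericytes and smooth muscle 184 to 291 and 225 to 341 CPM, and that of RPE genes 92280 to 128247 and 74196 to 123197 CPM. That of macrophages was 208 to 389 and 299 to 493 CPM, most of it from Csf1r, as most of the pericyte and smooth muscle sum came from Acta2. The melanocyte and pigment sum of 34273 to 47076 and 25307 to 52892 CPM was nearly all Ptgds, and the other 5 genes summed to 1204 to 2962 and 1141 to 3042 CPM. The cartilage-like sclera sum of 214 to 320 and 270 to 336 CPM was nearly all Sox9, and the other 4 genes summed to 9.62 to 18.0 and 7.20 to 26.6 CPM. Markers of surface epithelium (11.4 to 1095 and 3.37 to 981 CPM) and skeletal muscle (25.9 to 330 and 38.0 to 461 CPM) differed widely between libraries of the same group. Blood markers held 33.2 to 221 CPM in the controls and 30.5 to 121 CPM after laser. Best1, a defining RPE marker, was the only one of the 8 near 0. Their part in the collagen values was not tested.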

How the data were processed

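RNA was measured in 11 RPE/choroid libraries, 6 naïve control and 5 laser treated, grouped by the treatment labels, which give 6 and 5 samples. The authors deposited raw counts per gene. The same table holds columns of their own comparison (log2 fold change and log2 CPM, an F score, p-value and adjusted p), which the authors deposited and which were not used. The authors deposited a StringTie transcript file per library with TPM, FPKM and coverage, of which TPM was summed per gene as an alternative. The submitters' processing notes name bcl2fastq 2.18.0.12, Trim Galore, STAR 2.5.3a, featureCounts 1.5.3, StringTie 1.3.3 and edgeR 3.22.3 with mm10 and GRCm38. Roles, parameters and annotation are not given in the sources used here.

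Counts were tested with edgeR 4.0.16 (TMM, filterByExpr, which removed 0 genes, robust quasi-likelihood test, Benjamini-Hochberg over 14602 genes) in R 4.3.3, and tested on simulated data first. Alternatives used DESeq2 1.42.0 and limma 3.58.1. Level per length is TMM-scaled CPM per kb of exons (GENCODE M21, GRCm38, 14252 genes matched). Ratios of partner chains used counts plus 0.5 and an exact permutation test, and correlations 100000 permutations (scipy 1.17.1). GC trends were removed by loess offsets (span 0.3) per library. The members, lists and tests were chosen with earlier results of these data known. All chains are named. The lowest, median and highest control and each laser treated value are given for chains with an unadjusted p under 0.05, the 3 highest of each class, and partner chains. Replicate numbers were not used to pair the libraries in the main fit. Libraries held 25700881 to 38755994 counts, so sampling error of the read counts is small for abundant chains and large for chains with few counts. The result of 1 marker gene is not reported here.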

Additional observations from a re-analysis of the deposited data

Results flagged for a closer look

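In 98 groups of 6 or 5 values (CPM of a chain, or the log2 ratio of 2 partner chains, in 1 group of mice) the highest or lowest library was compared with the others by Dixon's 95% limit. Chance alone gives about 5% of such groups, and 10 passed. Of these 4 were in L2, 2 in C2, 2 in C3, 1 in C4 and 1 in L4, and no explanation was tested.

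Among the naïve control libraries, Col5a1 stood at 5.48 CPM in C2 with the others at 0.695 to 2.38 CPM. Col6a3 stood at 13.4 CPM in C4 with the others at 0 to 2.12 CPM. In C3 the log2 ratio of Col1a1 to Col1a2 was -2.83 (others -1.14 to -0.70) and that of Col1a1 to Col3a1 was -2.31 (others -0.46 to 0.29), so Col1a1 was low in this library beside both partners. The log2 ratio of Col4a5 to Col4a6 was 8.65 in C2, where Col4a6 had 0 counts, and 1.02 to 2.36 in the others.

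Among the laser treated libraries, L2 had the highest Col8a1 (2175 CPM, others 1626 to 1767) and Col6a2 (13.6 CPM, others 2.34 to 5.28). In L2 the log2 ratio of Col1a1 to Col1a2 was 0.30 (others -1.80 to -1.30), and that of Col9a1 to Col9a2 was 9.19 with 0 counts of Col9a2 (others 0.62 to 2.17). Col1a2 stood at 39.2 CPM in L4 with the others at 16.0 to 20.5 CPM.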

How the results depend on the processing

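No chain passed an adjusted p under 0.05 by edgeR or limma under any alternative, and 1 did by DESeq2. The number of chains higher at an unadjusted p under 0.05 was 5. It became 1 with the GC trend removed and 2 with the replicate block and GC trend removed. Within label R2 of the transcript files, an alternative chosen after seeing the data, it was 3 (Col18a1, Col6a1 and Col5a1). There the log2 fold changes of Col8a2, Col8a1 and Col9a3 were 0.26, 0.17 and 0.14, against 0.57, 0.57 and 0.78 within label R1. R1 was on C1 to C3, L1 and L2, and R2 on the other libraries. The number higher was 3 to 6 with 1 library left out, 3 without L2. The number lower was 0, 1 by DESeq2, and 0 to 1 with 1 library left out. Among the maturation, receptor and degradation genes, 10 higher became 3 (GC trend removed), 5 (block and GC) and 2 (within R2), and 6 to 11 with 1 library left out. The 1 lower became 2 with TPM at pseudocount 1, 0 with block and GC, and 0 to 2 with 1 library left out. The median of the network chains was 0.57 within label R1. The 3 leading chains held 94.5% of the summed level by coding length and 85.1% by TPM. Of 836 log2 fold changes under the alternatives 756 kept direction and side of the threshold, and 79 turned direction. The fits within R1 and within R2 entered this number only for the 5 chains with an unadjusted p under 0.05. For some of the other chains the sign also turned within R1 or within R2.

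The fold change of Col9a3 was -1.55 with TPM at pseudocount 1 and -1.57 at 0.1. The TPM of this gene was 10.8 to 15.3 in C5, C6, L1, L2 and L3 and 524 to 1007 in the other 6 libraries, while its counts ran from 29999 to 72750. Other signs turned with TPM at pseudocount 1 for Col3a1 (-0.0033), Col5a3 (-0.21), Col4a3 (0.079), Col4a5 (0.21), Col9a1 (0.22), Col4a1 (0.22), Col12a1 (-0.059), Col11a1 (-0.0016) and Col4a6 (0.14). At 0.1 they did for Col3a1 (-0.015), Col5a3 (-0.45), Col4a3 (0.080), Col4a5 (0.27), Col9a1 (0.22), Col4a1 (0.30), Col11a1 (-0.046) and Col4a6 (0.46). Limma voom turned Col6a3 (0.052), Col3a1 (-0.41), Col9a2 (-0.58), Col27a1 (0.26), Col4a1 (0.18) and Col11a1 (-0.10), and the R1 or R2 label as covariate Col2a1 (-0.11), Col9a2 (-0.29) and Col11a1 (-0.16). Removing the GC trend turned Col7a1 (-0.0014). By TPM the ratio differences of Col6a1/Col6a2 (-0.049), Col9a1/Col9a2 (-0.63) and Col9a2/Col9a3 (2.41) turned. The correlation of Col15a1 and Col18a1 became 0.23 for group deviations, 0.40 within R2 and 0.32 without 2 libraries, and that of Col5a1 and Col5a2 0.21 within R2. That of Col8a1 and Col8a2 lost its adjusted permutation p under 0.05 for group deviations (0.73), within R2 (0.71) and without 2 libraries (0.67). The cause of these changes was not tested.

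With 1 library left out, the fold change spanned 0 for Col17a1 (-0.087 to 1.20), Col3a1 (-0.034 to 0.50), Col7a1 (-0.042 to 0.41), Col9a2 (-0.013 to 0.70), Col5a3 (-0.15 to 0.48), Col4a3 (-0.20 to 0.039), Col10a1 (-1.26 to 0.014), Col4a5 (-0.55 to 0.23), Col9a1 (-0.48 to 0.18), Col4a1 (-0.40 to 0.37), Col12a1 (-0.22 to 0.68), Col11a1 (-0.31 to 0.38) and Col4a6 (-0.89 to 0.55). The ratio difference did for Col1a1/Col1a2 (-0.28 to 0.24), Col11a1/Col11a2 (-2.54 to 0.31), Col4a5/Col4a6 (-1.37 to 1.33), Col8a1/Col8a2 (-0.080 to 0.021), Col9a1/Col9a2 (-0.92 to 1.22) and Col9a2/Col9a3 (-1.87 to 0.52).

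Deviations of same-numbered libraries from their group means correlated at -0.0093, 0.12, 0.28, -0.0094 and -0.0084, and L2 and L3 correlated best with their own number. These values do not settle whether the numbers pair libraries. With the replicate block 4 chains were higher at an unadjusted p under 0.05, Col6a1 (0.84) being lost, and the sign turned for Col6a3 (0.12), Col3a1 (-0.13), Col7a1 (-0.15), Col9a2 (-0.15), Col4a3 (0.064) and Col11a1 (-0.37). With block and GC trend removed it turned for Col3a1 (-0.22), Col7a1 (-0.38), Col9a2 (-0.38), Col5a3 (-0.18), Col4a3 (0.076) and Col11a1 (-0.25).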
